A study of Mus musculus with 12 samples.

Results

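The transcripts of 7 genes were followed in embryonic mouse hearts with and without the histone chaperone gene *Hira*: the GATA factors *Gata2*, *Gata3*, *Gata4*, *Gata5* and *Gata6* and the FOG cofactors *Zfpm1* and *Zfpm2*. They were taken by symbol from a deposited table of 20368 genes, and all 7 passed the filter on low values in each comparison. The samples were hearts of CD1 embryos at embryonic day 11.5 or 12.5 (E11.5, E12.5), with 3 libraries in each of 4 groups. Controls were *Mesp1Cre*;*Hira*+/fl, carrying 1 wild-type and 1 floxed *Hira* allele. Mutants were *Mesp1Cre*;*Hira*-/fl, carrying 1 null and 1 floxed allele. Both genotypes therefore carried Cre, driven from the *Mesp1* locus in early heart mesoderm, and the controls could lose their floxed copy in those cells. Cells outside the *Mesp1* lineage, such as most neural crest cells, keep the floxed allele in both genotypes. How many hearts went into a library is not stated, so the p-values below measure the spread between libraries.

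GATA factors are zinc finger proteins that bind short DNA sites with a GATA core. *Gata4*, *Gata5* and *Gata6* act in heart muscle, endocardium and endoderm, *Gata2* in endothelium and blood progenitors, and *Gata3* in cushion tissue, sympathetic neurons and other lineages. FOG proteins bind no such site themselves. They attach to GATA factors and bring in the NuRD and CtBP corepressors, with *Zfpm2* (FOG2) the partner of *Gata4* in myocardium and *Zfpm1* (FOG1) the partner of *Gata1* in red cell and platelet precursors.

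The libraries held 11994148 to 17483982 counts. The E11.5 Mutant replicate 3 library had the fewest and stood apart, with a mean correlation of 0.972 to the others of its group against 0.979 to 0.992 for all other libraries, so the members' E11.5 values are also given without it. *Hira* itself does not check the labels in these gene-level counts, since exons outside the deleted part remain: its mean level at E11.5 was 77.8 ± 8.66 CPM (counts scaled to library size, SD, n = 3) in controls and 64.9 ± 8.99 in mutants, and at E12.5 it was 74.9 ± 12.8 and 74.4 ± 5.29. Counts of 4 Y-linked genes marked all 3 E11.5 control libraries as male, and 1 of 3 libraries in every other group. Sex and genotype were therefore confounded in part at E11.5. The tissue label was checked on its markers: 10 cardiomyocyte genes together took 19121 to 27104 CPM in every library.

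The sequences just upstream of the start sites of *Gata5* and *Gata2* are shown because these were the members whose libraries did not overlap between the genotypes at either stage. *Gata5* (ENSMUSG00000015627) lies on the minus strand of chromosome 2 at chr2:180325133-180334699 in GRCm38 (mm10), with 6 exons in its principal transcript. *Gata2* (ENSMUSG00000015053) lies on the plus strand of chromosome 6 at chr6:88193891-88207032, with 6 exons. The 250 bases that follow are RefSeq sequence of GRCm38.p6, 5′ to 3′ on the strand of the gene, from chr2:180334680-180334929 for *Gata5* and chr6:88193641-88193890 for the upstream start of *Gata2*, and the capitals in them mark GAGAGA, a GA-repeat word.
Gata5: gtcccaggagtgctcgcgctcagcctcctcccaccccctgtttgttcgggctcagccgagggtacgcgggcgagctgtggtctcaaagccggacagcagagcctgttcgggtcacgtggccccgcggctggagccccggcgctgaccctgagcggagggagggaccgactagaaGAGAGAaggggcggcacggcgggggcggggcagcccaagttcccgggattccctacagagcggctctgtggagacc
Gata2: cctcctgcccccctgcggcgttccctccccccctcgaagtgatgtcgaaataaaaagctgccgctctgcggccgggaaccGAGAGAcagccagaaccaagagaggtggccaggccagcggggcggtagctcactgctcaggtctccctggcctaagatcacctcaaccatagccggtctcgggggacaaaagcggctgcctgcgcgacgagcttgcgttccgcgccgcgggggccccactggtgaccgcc
The *Gata5* window ends at a RefSeq start inside the gene span given above, so its last bases, from chr2:180334699 to chr2:180334680, lie within that span. Both windows are rich in G and C, at 70% for *Gata5* and 67.2% for *Gata2*, against a median of 52.4% over all promoters of the table. The table held upstream sequence for 4 of the 7 members, *Gata2* (2 starts), *Gata3*, *Gata5* and *Zfpm1*. None of these 5 windows held a GATA site word, here AGATAA with A or T as its opening letter and A or G as its last, on either strand, which 26.5% of 32851 promoters of the same length hold. GAGAGA or its reverse complement TCTCTC was found in the 2 windows printed and in none of the other 3, against 20.2% of all promoters. A match of letters is a description and was not tested as a site.

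*Gata4* and *Gata6* were the most abundant members and *Gata3* the least. Levels of different genes are compared per length, as RPKM (CPM per kilobase of the gene length recovered from the deposited values). In E11.5 controls the mean RPKM was 65.2 for *Gata4*, 45.4 for *Gata6*, 23.7 for *Zfpm1*, 17.1 for *Gata5*, 6.23 for *Zfpm2*, 3.99 for *Gata2* and 1.37 for *Gata3*. The order was the same at E12.5 in both genotypes, and in E11.5 mutants *Gata2*, at 7.48, stood above *Zfpm2*, at 5.63. Neighbours in this order did not overlap in their library ranges, with 3 exceptions: *Zfpm1* and *Gata5* overlapped at E11.5 in either genotype, and *Zfpm2* and *Gata2* overlapped in E12.5 mutants.

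**Figure D1:**
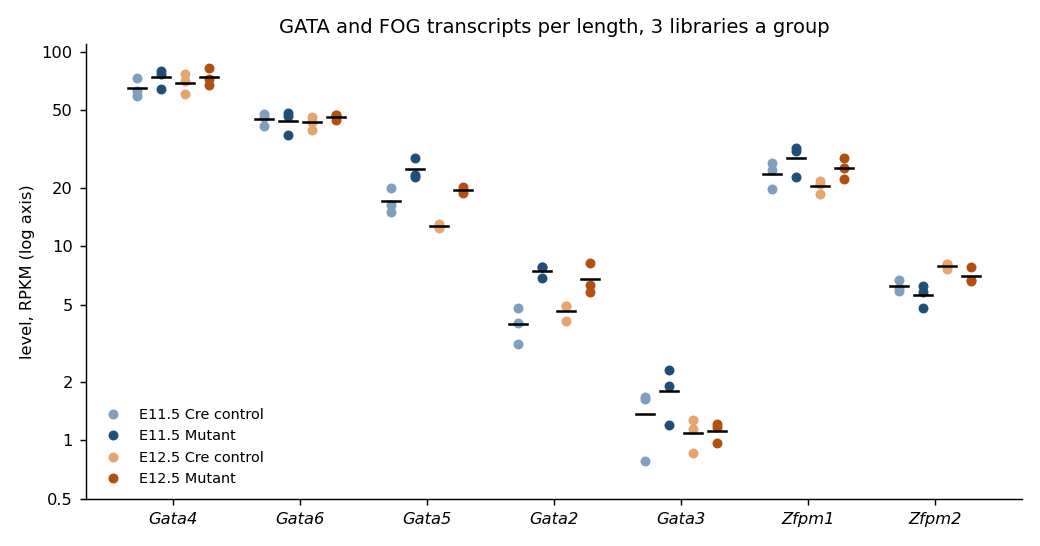
Level of each member in every library, as RPKM on a log axis; points are libraries coloured by group, and black lines are the means of 3 libraries. Gata5 and Gata2 in mutants lie above the controls of the same stage, whereas Gata4 and Gata6 overlap between the genotypes at both stages.

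Seen as a share of the summed RPKM of the 5 GATA factors, which does not depend on how libraries are scaled, *Gata4* made up 48.5 to 52.9% in the mean of each group. The *Gata5* share was 12.8 ± 0.711% (SD, n = 3) in E11.5 controls and 16.4 ± 1.62% in E11.5 mutants, while at E12.5 it was 9.70 ± 0.701% in controls and 13.2 ± 0.784% in mutants. The *Gata2* share was 2.98 ± 0.323% and 4.95 ± 0.737% at E11.5, and 3.54 ± 0.0848% and 4.55 ± 0.514% at E12.5, control before mutant. At each stage the library ranges of these shares did not overlap between genotypes. The *Gata6* share lay the other way at E11.5, from 31.7 to 36.1% in controls to 27.9 to 30.9% in mutants, while at E12.5 its ranges, 31.2 to 34.2% and 29.8 to 32.5%, overlapped.

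The main comparison asks how loss of *Hira* in *Mesp1* lineage cells bears on these genes at each stage. At E12.5 *Gata5* was higher in mutant hearts, at 1.53-fold, and it was the member called there. A gene was called when its adjusted p was at most 0.05 and its fold change at least 1.5, with edgeR's quasi-likelihood test and Benjamini-Hochberg adjustment over all genes tested. With the stages combined, *Gata2* was called, at 1.65-fold. At E11.5 no member was called, against 0.115% of all genes by edgeR. Unadjusted p was under 0.05 for 2 of 7 members (*Gata2* and *Gata5*) and 10.2% of all genes there. DESeq2 called *Gata2* at E11.5, as 1 of the 248 genes it called among 12197. *Gata4*, *Gata6*, *Gata3* and both FOG genes were called in no comparison of the genotypes.

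*Gata5* encodes a GATA factor of endocardium and early heart precursors. At E12.5 its level was 41.0, 43.2 and 41.6 CPM in the controls and 66.4, 62.4 and 64.4 CPM in the mutants, from 624 to 1061 counts a library. Each mutant library was above each control library, and the spread within either genotype was small beside the gap. The log2 fold change was 0.62 ± 0.08 (SE; 95% interval 0.45 to 0.79), with an edgeR adjusted p of 0.00246, the 30th smallest p of 12257 genes.

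The call of *Gata5* is 1 of 7 members, against 2.95% of all genes tested at E12.5. Its fold sat just over the threshold of 1.5, and 2 settings took it under. With offsets that remove the trend of each library with transcript GC content, an alternative added after the data were seen, the log2 fold change was 0.56 at an adjusted p of 0.00357 by edgeR. With limma on log2(RPKM + 1) it was 0.58 at an adjusted p of 0.00400. An antisense gene, *Gata5os*, overlaps *Gata5* by 1843 bases at chr2:180332857-180340732, and whether the authors' counting used strand is not given in the sources used here.

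At E11.5 *Gata5* stood at 54.1, 66.2 and 49.5 CPM in the controls and 75.1, 77.1 and 94.3 CPM in the mutants. Again the genotypes did not overlap, but the libraries spread more than at E12.5. The log2 fold change was 0.54 ± 0.15 (95% interval 0.19 to 0.88), and its edgeR adjusted p was 0.241. Without E11.5 Mutant replicate 3, the highest library, it was 0.42 at an adjusted p of 0.215. Over 12 other settings, a sex term among them, the log2 fold change ran from 0.46 to 0.75.

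*Gata2*, which encodes a factor of endothelium and blood progenitors, stood at 13.0, 15.6 and 10.2 CPM in E11.5 controls and at 22.2, 25.2 and 25.3 CPM in E11.5 mutants. These values rest on 146 to 417 counts a library, and the groups did not overlap. The log2 fold change was 0.90 ± 0.18 (95% interval 0.49 to 1.31), the largest of the members, with an edgeR adjusted p of 0.118. Over 12 other settings, a sex term among them, it ran from 0.77 to 0.98. *Gata2* was called by DESeq2, at an adjusted p of 0.00292, and by edgeR when all 12 libraries shared 1 fit, at an adjusted p of 0.0184. These settings called 248 of 12197 and 221 of 12270 genes, against 14 in the main fit. Without E11.5 Mutant replicate 3 the log2 fold change was 0.86 at an edgeR adjusted p of 0.118, and the other two mutant libraries, at 22.2 and 25.2 CPM, lay above all 3 controls.

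At E12.5 *Gata2* stood at 13.3, 15.9 and 16.0 CPM in controls and at 26.6, 20.5 and 18.9 CPM in mutants. The groups did not overlap, and replicate 1 of the mutants was well above the other two. The log2 fold change was 0.54 ± 0.14 (95% interval 0.22 to 0.85), with an edgeR adjusted p of 0.0569, so it missed the threshold. Without E12.5 Mutant replicate 3, the lowest mutant, it was 0.63 at an adjusted p of 0.0408 and was called.

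Over both stages with stage as a term, *Gata2* had a log2 fold change of 0.72 ± 0.12 (95% interval 0.45 to 0.99) and an edgeR adjusted p of 0.00400. It was called in all 11 other settings and in all 12 fits that left out a library. *Gata5* had 0.58 ± 0.08 (95% interval 0.40 to 0.75) and an adjusted p of 0.00105, but its 1.49-fold change was just under the fold threshold. Among all 12270 genes of this fit 3.22% were called, beside 1 of 7 members. At an adjusted p of at most 0.05 and any fold, 6.85% of all genes and 2 of 7 members passed.

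**Figure D2:**
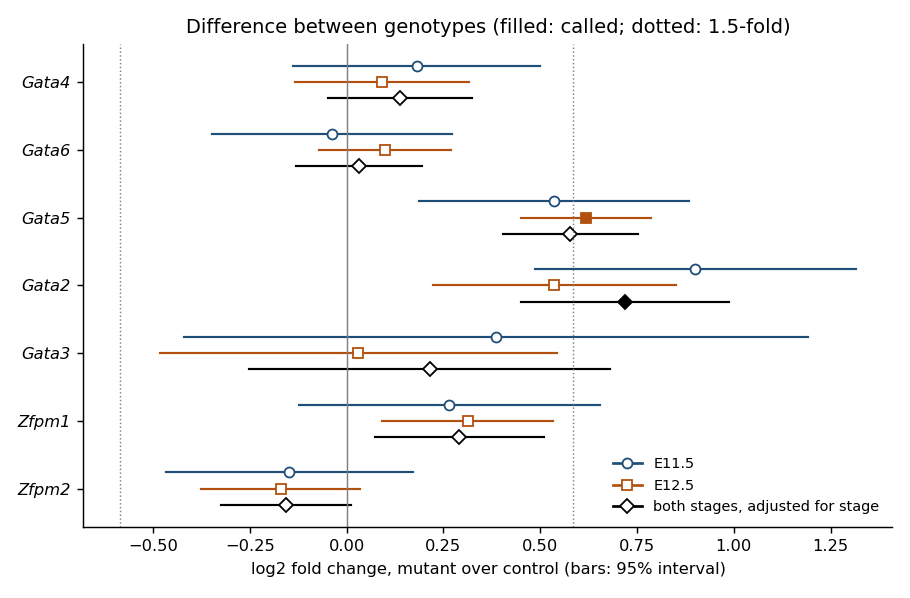
Log2 fold change of each member, mutant over control, at E11.5 (blue circles), at E12.5 (orange squares) and over both stages (black diamonds), with 95% intervals from edgeR; filled symbols were called, and dotted lines mark a 1.5-fold change. Gata5 at E12.5 (0.62) and Gata2 over both stages (0.72) are the filled points.

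Exact two-sided permutation tests of single genes, 3 libraries against 3, cannot go below p = 0.1. That smallest value was reached by *Gata2* and *Gata5* at both stages and by *Zfpm1* at E12.5. Non-overlap of this kind was seen at E11.5 for 2 of 7 members and 16.3% of all genes, and at E12.5 for 3 of 7 members and 26.3% of all genes.

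*Gata4*, the factor most used by cardiomyocytes, stood at 213, 250 and 200 CPM in E11.5 controls and at 261, 220 and 272 CPM in E11.5 mutants. At E12.5 it was 206, 262 and 241 CPM in controls and 280, 247 and 229 CPM in mutants. The genotypes overlapped at both stages. Its log2 fold change was 0.18 ± 0.14 at E11.5 and 0.09 ± 0.10 at E12.5 (edgeR adjusted p 0.778 and 0.650). Without E11.5 Mutant replicate 3 it was 0.11 at E11.5. Over both stages it was 0.14, with a 95% interval of -0.05 to 0.32, which leaves room for a difference but not for one of 1.5-fold.

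*Gata6*, a factor of outflow tract, myocardium and endoderm, had 133 to 153 CPM in E11.5 controls and 120 to 155 CPM in E11.5 mutants. At E12.5 the ranges were 127 to 149 CPM and 142 to 152 CPM. Over both stages its log2 fold change was 0.03 (95% interval -0.13 to 0.19; edgeR adjusted p 0.889), the smallest difference among the members. Its sign was negative at E11.5 (-0.04) and positive at E12.5 (0.10), with neither value beyond the spread of libraries, and at E11.5 it was -0.09 without E11.5 Mutant replicate 3.

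*Gata3* had the fewest counts of the members, 36 to 94 a library. At E11.5 its level was 2.52 to 5.39 CPM in controls and 3.87 to 7.44 CPM in mutants. At E12.5 the ranges were 2.78 to 4.08 CPM and 3.12 to 3.90 CPM. The groups overlapped at both stages. The 95% interval over both stages, -0.25 to 0.68 in log2, includes a 1.5-fold difference, so a change of that size is not excluded. Without E11.5 Mutant replicate 3 the E11.5 log2 fold change went from 0.39 to 0.17 (edgeR adjusted p 0.830 and 0.855).

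The FOG genes were called in neither direction. *Zfpm1* stood at 62.6, 73.8 and 70.8 CPM in E12.5 controls and at 96.6, 85.6 and 75.5 CPM in E12.5 mutants, without overlap. The log2 fold change was 0.31 ± 0.10 there (edgeR adjusted p 0.103) and 0.27 ± 0.17 at E11.5 (adjusted p 0.706), where the groups overlapped. Without E11.5 Mutant replicate 3 the E11.5 value was 0.17. A read-through model of the annotation, *Gm20388*, spans *Zfpm1* on the same strand, so its counts could be shared in part.

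*Zfpm2* was the 1 member with a negative difference at both stages. At E11.5 it stood at 29.1, 30.5 and 33.5 CPM in controls and 31.2, 29.0 and 23.8 CPM in mutants. At E12.5 it stood at 40.2, 38.0 and 40.1 CPM in controls and 39.0, 33.3 and 32.9 CPM in mutants. The genotypes overlapped at both stages, at E12.5 through mutant replicate 1 alone. The log2 fold change was -0.15 ± 0.14 at E11.5 and -0.17 ± 0.09 at E12.5 (edgeR adjusted p 0.841 and 0.326), and at E11.5 it was -0.05 without E11.5 Mutant replicate 3.

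Members differ in GC content, and libraries differ in how their counts follow it. The longest transcript of *Zfpm1* has 66.8% GC, at or above 99.9% of the genes tested, and *Gata2* has 58.2%, *Gata4* 57.4%, *Gata5* 56.9% and *Gata6* 55.3%. *Gata3* has 49.7%, near the median of 50.1%, and *Zfpm2* has 44.0%. The trend of a library with GC was given as the correlation, over genes, of its log2 deviation from the mean of the 12 libraries with GC content. At E11.5 it ran from -0.229 to 0.105 in controls and from -0.0993 to 0.287 in mutants, and at E12.5 from -0.20 to 0.0468 and from -0.0583 to 0.188. The highest value was that of E11.5 Mutant replicate 3.

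With that trend removed, *Zfpm1* went from 0.31 to 0.21 at E12.5 and from 0.27 to 0.16 at E11.5, and *Zfpm2* from -0.17 to -0.13 and from -0.15 to -0.09. *Gata2* went from 0.90 to 0.85 at E11.5 and from 0.54 to 0.47 at E12.5. *Gata5* went from 0.54 to 0.46 and from 0.62 to 0.56. Over both stages *Gata2* was still called, at 0.66 with an edgeR adjusted p of 0.00499, and *Gata5* had 0.51 with an adjusted p of 0.000574. *Gata3* stayed at 0.03 at E12.5, and *Gata6* over both stages went from 0.03 to -0.01.

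**Figure D3:**
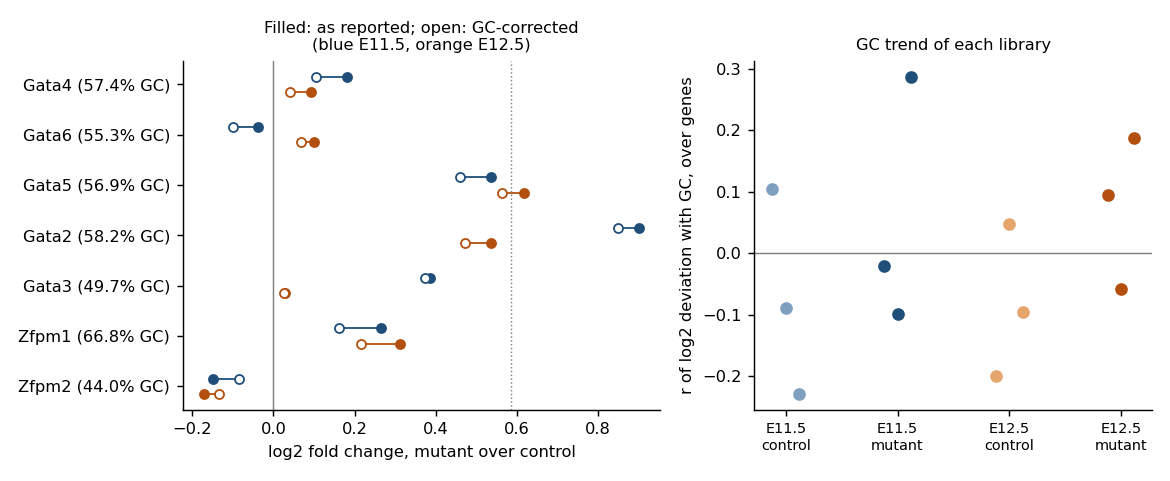
Left, log2 fold change of each member, mutant over control, as reported (filled) and with GC-corrected offsets (open), at E11.5 (blue) and E12.5 (orange), with the GC content of its longest transcript and a dotted line at 1.5-fold; right, the correlation over genes of each library's log2 deviation with GC content. Gata5 at E12.5 passes from 0.62 to 0.56, and the library with the highest value, 0.287, is E11.5 Mutant replicate 3.

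The effect of the mutation was also set between the stages. No member differed, with edgeR adjusted p from 0.956 to 0.985, and 0 of 12270 genes passed (0% called; 551 genes, or 4.49%, had an unadjusted p under 0.05, and DESeq2 called 43). For *Gata5* the later effect less the earlier one was 0.08 (95% interval -0.28 to 0.44). For *Gata2* it was -0.36 (95% interval -0.88 to 0.15). Within that interval a smaller, an equal and a larger effect at E12.5 could not be told apart.

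From E11.5 to E12.5 in control hearts, *Gata5* fell and *Zfpm2* rose, both by less than 1.5-fold. *Gata5* fell by 0.43 ± 0.12 on the log2 scale (edgeR adjusted p 0.0418), from 49.5 to 66.2 CPM at E11.5 to 41.0 to 43.2 CPM at E12.5. *Zfpm2* rose by 0.35 ± 0.10 (adjusted p 0.0497), from 29.1 to 33.5 CPM to 38.0 to 40.2 CPM. Both had groups that did not overlap, as did 37.4% of all genes. At any fold, 11.4% of all genes and these 2 of 7 members passed, and under the fold threshold 5.28% of all genes and 0 members were called. The same 2 members and 32.8% of all genes had an unadjusted p under 0.05, and DESeq2 called 0 members. The E11.5 controls were all male and 2 of 3 E12.5 controls were female. With a sex term the adjusted p was 0.519 for *Gata5* and 0.523 for *Zfpm2*, with log2 fold changes of the same sign. Leaving out 1 library at a time gave adjusted p from 0.0431 to 0.160 for *Gata5* and from 0.0641 to 0.166 for *Zfpm2*.

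In mutant hearts no member was called between the stages. *Gata5* had a log2 fold change of -0.36 ± 0.12 and *Zfpm2* of 0.31 ± 0.14 (edgeR adjusted p 0.359 and 0.533), both without overlap, which 17.4% of all genes showed. *Gata3* had the largest value, -0.69 ± 0.28 (adjusted p 0.50), from groups that overlapped. In this comparison 0.556% of all genes were called and 0 members, while unadjusted p was under 0.05 for 3 members and 9.27% of all genes, and DESeq2 called 0 members.

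**Figure D4:**
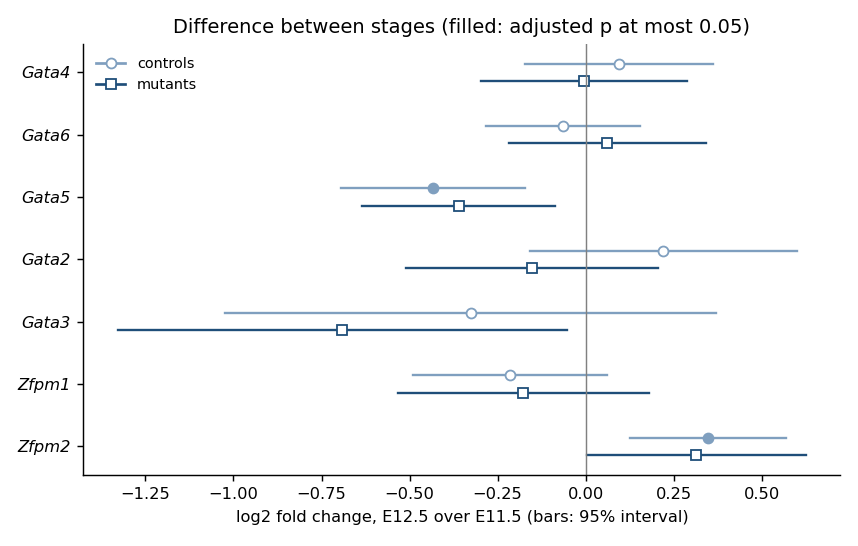
Log2 fold change of each member from E11.5 to E12.5 in controls (light circles) and in mutants (dark squares), with 95% intervals from edgeR; filled symbols have an adjusted p of at most 0.05. Gata5 (-0.43) and Zfpm2 (0.35) in controls are the filled points, and the mutants lie on the same side for both.

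No listed partner of GATA4 in cardiomyocytes was called between the genotypes. Of 13 transcription factors and coactivators that work with GATA4 in cardiomyocytes, 0 were called at E11.5 or E12.5 by edgeR (2 with an unadjusted p under 0.05 at each stage), and the median log2 fold change was 0.03 and -0.15, against 0.00 over all genes at each stage. *Nkx2-5*, the homeobox partner of GATA4, had -0.03 and -0.15, and *Tbx5* had -0.16 and -0.17. *Klf13*, a zinc finger partner of GATA4, had 0.46 and 0.35 without overlap, which 16.3% and 26.3% of all genes showed. At E12.5 its highest control and lowest mutant nearly tied, at 35.55 and 35.58 CPM. Over both stages *Klf13* had 0.41 with an edgeR adjusted p of 0.0143, under the fold threshold. *Isl1*, which marks second heart field progenitors, had the largest value at E11.5, -1.48 ± 0.63 (adjusted p 0.468).

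The corepressors that FOG proteins recruit gave no call either. Of 15 NuRD and CtBP genes 14 were tested, 0 were called in any comparison by edgeR (0 with an unadjusted p under 0.05 at E11.5 or at E12.5), and their median log2 fold change was 0.08 at E11.5 and 0.04 at E12.5. *Chd4*, the NuRD remodelling enzyme, had the largest value at both stages, 0.35 and 0.16 (edgeR adjusted p 0.639 and 0.249). Among other GATA-type zinc finger genes 4 of 5 were tested and 0 called, with *Trps1*, a repressor of GATA sites, at -0.50 and -0.34.

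*Gata1*, the red cell GATA factor and partner of *Zfpm1*, lies on chromosome X. Its row was outside the comparisons and is given as values: at E11.5, 121, 79 and 69 counts in controls and 174, 181 and 89 in mutants. At E12.5 it had 45, 23 and 56 counts in controls and 29, 11 and 30 in mutants, with overlap at that stage and at E11.5.

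Genes known as GATA4 targets in myocardium gave 1 call between the genotypes at a single stage, E12.5, where 2.95% of all genes were called. Of 16, 1 was called at E12.5, *Adora1*, which encodes the A1 adenosine receptor: 17.2 ± 3.16 CPM in mutants against 9.996 ± 1.92 CPM in controls, a log2 fold change of 0.78 ± 0.18 (edgeR adjusted p 0.0331). At E11.5 it had 0.63 (adjusted p 0.325) and over both stages 0.71 (adjusted p 0.00809). The median of the list was -0.04 at E11.5 and 0.07 at E12.5. *Nppa*, the atrial natriuretic peptide gene, had 0.26 at E12.5 with overlapping groups.

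In the list of 8 GATA6 targets and smooth muscle genes 7 were tested, and *Sema3c*, a guidance ligand of the outflow tract, was lower. It had 105.7 ± 20.3 CPM in E11.5 controls and 54.8 ± 24.1 CPM in E11.5 mutants, and 68.4 ± 9.87 and 46.0 ± 4.51 CPM at E12.5. Over both stages it fell by 0.76 ± 0.18 on the log2 scale and was called (edgeR adjusted p 0.0194). It was the 1 of 7 called in that fit, against 3.22% of all genes. *Wnt2* had -1.56 at E11.5 (adjusted p 0.173) and *Acta2*, smooth muscle actin, had 0.31 and 0.41, so the list held both signs. Over both stages *Acta2* (0.36, edgeR adjusted p 0.0347) and *Cnn1* (0.34, adjusted p 0.0430) were higher in mutants, under the fold threshold.

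Endothelial genes bear on *Gata2* and *Gata5*, since endothelium and endocardium use both. In bulk hearts more cells of a type and more RNA per cell cannot be told apart. Of 15 endothelial genes, all had a positive log2 fold change at E11.5 with a median of 0.48. By edgeR 0 were called there, while 7 of 15 had an unadjusted p under 0.05, against 10.2% of all genes. At E12.5 the count was 10 of 15 with a median of 0.05. Against 2.95% of all genes, 2 were called higher: *Vwf*, a clotting factor gene (1.18 ± 0.20, adjusted p 0.00985), and *Etv2*, an early driver of endothelial and blood fate (3.19 ± 0.45, adjusted p 0.00466, both edgeR). The *Etv2* value rests on few control counts, 9, 3 and 17 in E12.5 controls against 108, 66 and 81 in E12.5 mutants. *Prox1*, a regulator of lymphatic endothelium that heart muscle also uses, fell by 0.44 ± 0.10 (adjusted p 0.0280), under the fold threshold.

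Summed over the list, the level was 1022, 1243 and 1043 CPM in E11.5 controls and 1306, 1872 and 1263 CPM in E11.5 mutants. At E12.5 it was 1388, 1344 and 1378 CPM in controls and 1653, 1317 and 1599 CPM in mutants. The genotypes did not overlap at E11.5 and overlapped at E12.5. Pan-endothelial genes were uncalled at E12.5, with overlapping groups and log2 fold changes of 0.27 for *Tie1*, 0.24 for *Pecam1*, 0.05 for *Cdh5*, 0.01 for *Tek* and -0.02 for *Erg*. Over both stages 12 of 15 listed genes were positive and 3 negative, with a median of 0.29. *Vwf* and *Etv2* were called in that fit, against 3.22% of all genes. There *Tie1* had 0.37, *Pecam1* 0.38, *Cdh5* 0.34, *Tek* 0.03 and *Erg* 0.29. Of these *Pecam1* passed the adjusted p (0.0264, edgeR), under the fold threshold. The part of endothelial content in the *Gata2* and *Gata5* results was not tested.

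**Figure D5:**
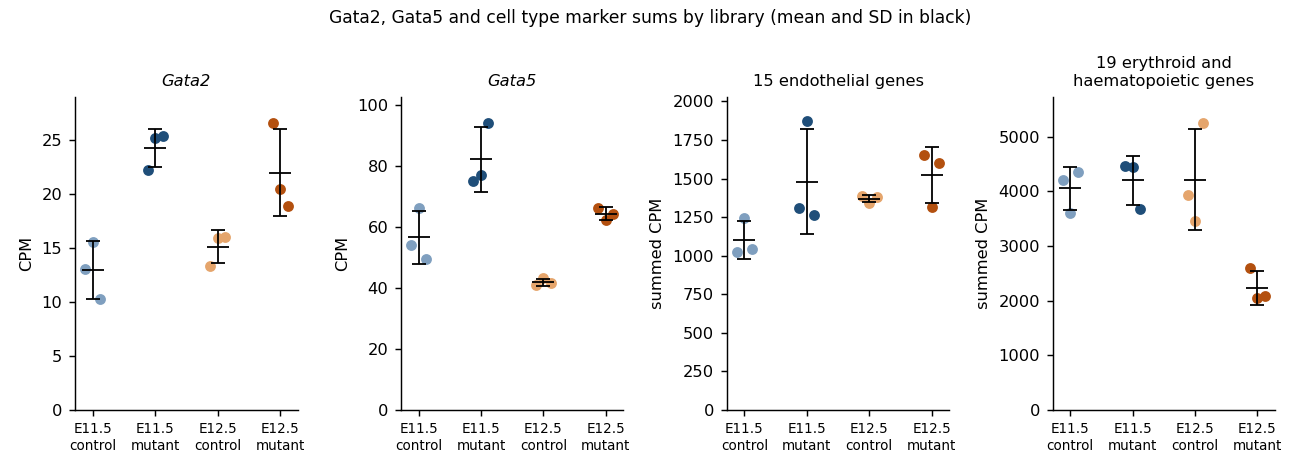
Level in every library of Gata2 and Gata5 (CPM) and summed CPM of 15 endothelial and of 19 erythroid and haematopoietic genes, with the mean and SD of 3 libraries in black; each axis starts at 0. Gata5 separates the genotypes at both stages, the endothelial sum does so at E11.5, and the erythroid sum is lower in the E12.5 mutants, at 2038 to 2592 CPM.

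Endocardial *Nfatc1*, a valve regulator, was the second most like *Gata2* of 12270 genes. It stood at 40.4 to 56.7 CPM in E11.5 controls and 73.1 to 91.1 CPM in E11.5 mutants, and at 51.2 to 54.0 CPM and 58.8 to 99.5 CPM at E12.5. Over both stages it was called higher, at 0.61 ± 0.12 (edgeR adjusted p 0.00879), the 1 of 14 endocardium and cushion genes called, against 3.22% of all genes. Other genes of the endocardium and cushion list of 14 differed in sign, with *Postn*, a matrix gene of cushion mesenchyme, called lower at E12.5 (fell by 0.61 ± 0.13, adjusted p 0.0241) and *Has2*, a hyaluronan synthase, at 0.58 (adjusted p 0.0415, under the fold threshold). *Postn* was the 1 of 14 called at that stage, against 2.95% of all genes.

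Part of the blood genes were lower in mutants at E12.5. Of 17 erythroid and haematopoietic genes tested, 12 had a negative and 5 a positive log2 fold change, and 5 were called, against 2.95% of all genes. The 5 were called lower: the red cell membrane genes *Slc4a1* (fell by 1.64 ± 0.20) and *Ank1* (fell by 0.92 ± 0.15) and the globins *Hba-a1*, *Hbb-bh1* and *Hbb-y*, with edgeR adjusted p of 0.00234 to 0.0140. The summed level was 3457 to 5244 CPM in E12.5 controls and 2038 to 2592 CPM in E12.5 mutants. At E11.5 the sums overlapped, with 3607 to 4347 CPM and 3684 to 4467 CPM. The globin *Hbb-y* alone gave 1909 to 2527 CPM in E11.5 controls, so the sums say little of the other genes. Of 16 genes tested at E11.5, 13 had a positive and 3 a negative log2 fold change, with a median of 0.34. By edgeR 0 were called there, and 6 had an unadjusted p under 0.05, against 10.2% of all genes. The part of fewer red cells in the E12.5 results was not tested.

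Markers of other cells were called in part. Of 8 macrophage genes tested, all had negative log2 fold changes at both stages. At E11.5 1 was called (*C1qb*), against 0.115% of all genes. At E12.5 4 were called (*Csf1r*, *Cx3cr1*, *Mrc1* and *Tyrobp*), against 2.95% of all genes. The list summed to 36.2 to 96.2 CPM in E11.5 controls and 16.7 to 21.2 CPM in E11.5 mutants, and to 96.2 to 126 CPM and 53.2 to 70.3 CPM at E12.5. Epicardial genes summed to 746 to 1054 CPM and 673 to 718 CPM at E11.5, and to 463 to 670 CPM and 701 to 749 CPM at E12.5, control before mutant. By edgeR 0 of 11 were called at E11.5, with 8 negative and a median log2 fold change of -0.62. There 7 had an unadjusted p under 0.05, against 10.2% of all genes. At E12.5 4 of 10 were called higher, *Msln*, *Krt8*, *Krt18* and *Krt19*, against 2.95% of all genes. *Wt1* overlapped at that stage, at 35.6 to 53.5 CPM in controls and 32.7 to 49.5 CPM in mutants. Over both stages 7 of 11 were negative and 4 positive, with a median of -0.31. Sums of sympathetic and neural crest genes, which *Gata3* accompanies, were carried by *Prph* and *Stmn2*. Over both stages these sums were 7.96 to 20.5 CPM in controls and 21.3 to 42.9 CPM in mutants. *Prph* and *Stmn2* were the 2 of 4 tested genes called over both stages, against 3.22% of all genes. The other two had negative values over both stages, among them *Th*, tyrosine hydroxylase, at -0.46 (edgeR adjusted p 0.467). Skeletal muscle genes summed to 257 to 358 and 486 to 565 CPM at E11.5. At E12.5 the sums were 166 to 298 and 302 to 468 CPM. They were nearly all *Acta1*, skeletal alpha actin, at 243 to 351 and 477 to 559 CPM at E11.5. *Acta1* was the 1 of 3 tested genes called at E12.5, against 2.95% of all genes. The muscle lineage genes *Myod1*, *Myog* and *Myf5* had at most 17, 39 and 3 counts a library. *Myh3*, of the same list, had 176 counts in E12.5 Mutant replicate 2, the library that also held the most *Myod1* and *Myog*. It had 14 and 33 counts in E12.5 Mutant replicates 1 and 3, and 6, 12 and 2 in E12.5 controls. Genes of endoderm, lung and liver, where *Gata4* and *Gata6* are also used, summed to 2.66 to 69.5 CPM and were highest in replicate 1 of the E11.5 mutants, E12.5 mutants and E11.5 controls. Of these genes edgeR called 0 of 5 at either stage (0 with an unadjusted p under 0.05 at E11.5 and 3 at E12.5). Over both stages it called 1 of 6, *Alb*, the albumin gene, against 3.22% of all genes. *Alb* had 277 counts in E12.5 Mutant replicate 1 and at most 16 in any other library, the 16 in E12.5 Cre control replicate 2. The part of these cells in the members' values was not tested.

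The genes whose log2 CPM followed each member most closely over the 12 libraries are given as a description, by Pearson's r among 12270 genes. They share library, depth and GC content with the member. For *Gata2* they were *Arhgef15* (0.953), *Nfatc1* (0.949) and *Zfp385a* (0.943). For *Gata5* they were *Isyna1* (0.964), *Mgarp* (0.955) and *Efhd2* (0.945). *Zfpm1* was followed by *Mapk11* (0.938), *Hes1* (0.933) and *Fscn1* (0.931), and *Zfpm2* by *Trpc1* (0.960), *Ecm2* (0.947) and *Epha7* (0.941). The values were lower for *Gata4*, with *Zfp574* (0.901), *Irf2bpl* (0.896) and *Stub1* (0.881), and for *Gata6*, with *Junb* (0.854), *Fosl2* (0.850) and *Ajuba* (0.848). *Gata3* had *Chtf18* (0.935), *Fam183b* (0.875) and *Pbx2* (0.874).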

How the data were processed

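Embryonic heart RNA was sequenced as Illumina paired ends, aligned with Bowtie2 to mm10 and normalised with DESeq, per the labels. The deposited values labelled RPKM are a score, each a whole count times gene length times a library factor, and beside them the authors deposited group averages, each the mean of 3 whole counts (unit: expected counts, since a mean need not be whole), and their own comparisons, which were not used. Counts were recovered from both (17827 genes with reads; largest distance from a whole number 4.07e-10). Of 944 genes outside the authors' comparisons, 501 had recoverable counts.

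Differences were tested with edgeR 4.0.16 (quasi-likelihood, TMM) in R 4.3.3 on genes whose mean RPKM reached 0.5, with limma 3.58.1 and DESeq2 1.42.0 as alternatives. The thresholds follow the study's methods. Replicate numbers did not pair samples. The scripts were tested on simulated data. The 7 members and all gene lists were chosen with earlier results of these data known. Named were all members, the called genes and up to 4 with the largest change of each list, Hira, and the 3 genes most like each member. Intervals cover the spread between libraries.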

Additional observations from a re-analysis of the deposited data

How the results depend on the processing

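The number of members called was within 1.5 times the reported one in 106 of 117 alternative fits. At E11.5, where 0 were called, DESeq2 and the fit of all 12 libraries each called 1, Gata2. At E12.5, where Gata5 was the 1 called, 0 were called with GC-corrected offsets and with limma on log2(RPKM + 1), in both cases because the fold passed under 1.5. Over both stages, where Gata2 was the 1 called, 2 were called with no fold threshold and with a sex term, Gata5 joining. Between the stages in controls 2 were called with no fold threshold against 0 otherwise. Leaving out 1 library at a time gave 1 to 2 members at E12.5, 1 to 2 over both stages and 0 elsewhere. Gata5 joined over both stages without E11.5 Cre control replicate 2 (0.63), E11.5 Mutant replicate 1 (0.61) or E11.5 Mutant replicate 2 (0.60), and Gata2 at E12.5 without E12.5 Mutant replicate 3 (0.63). Except where a value or the fold threshold shows it, the cause was not tested.

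Signs that turned all belonged to uncalled values near 0. Gata6 gave 0.0542 at E11.5 and 0.0362 between the stages in controls with a sex term, and -0.0138 over both stages with GC-corrected offsets. Zfpm1 gave -0.0811 for the difference between stages with a sex term. Gata4 between the stages in mutants gave 0.0058 in 1 fit of 12 libraries, 0.0165 at a mean RPKM of at least 5 and 0.0075 with no filter. Leaving out 1 library gave Gata6 at E11.5 -0.1029 to 0.0695, over both stages -0.0010 to 0.0875 and between the stages in mutants -0.0476 to 0.1286. It gave Gata3 at E12.5 -0.11 to 0.14, Gata4 at E12.5 -0.0010 to 0.17 and Gata4 between the stages in mutants -0.095 to 0.0684. For the difference between stages it gave Gata5 -0.0518 to 0.2046, Zfpm1 -0.0943 to 0.1555 and Zfpm2 -0.1130 to 0.0510.

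With the replicate block, which the labels do not call for (correlations of same-numbered libraries from -0.03 to 0.43 at E11.5 and 0.02 to 0.07 at E12.5), the member calls were 0, 1 and 1 at E11.5, at E12.5 and over both stages, as without it.

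Counts over all genes moved more. At E11.5 the 14 called genes became 73 with no filter or with the block, 248 with DESeq2, 221 in 1 fit of 12 libraries, 29 with a sex term, 16, 27 and 26 with limma at pseudocounts of 0.1, 0.5 and 1, 7 with GC-corrected offsets and 6 at a mean RPKM of at least 5. At E12.5 the 362 became 157 at that filter, 132 in 1 fit of 12 libraries and 613 with no fold threshold. Over both stages the 395 became 120 at that filter, 221 with limma on log2(RPKM + 1) and 840 with no fold threshold. Between the stages in controls the 647 became 363, 336, 415 and 1402 under the same settings and 19 with a sex term. In mutants the 68 became 119 with no filter or in 1 fit of 12 libraries, 29 at the stricter filter, 227 with DESeq2 and 36 with the block. Leaving out 1 library moved these counts, and so the shares of all genes that the members were set against, to between 0 and 15 at E11.5 (0 in 4 of 6 fits, those without control replicate 1 or 3 or mutant replicate 1 or 2), 151 (without control replicate 1) and 368 at E12.5, 307 and 412 over both stages, 44 (without E12.5 control replicate 1) and 1407 (without E11.5 control replicate 2) between the stages in controls, and 1 (without E12.5 mutant replicate 2) and 123 (without E11.5 mutant replicate 3) in mutants. For the difference between stages it gave 0 in 11 of 12 fits and 10 without E11.5 mutant replicate 3. Gata3 had the fewest counts, 36 to 94 a library, and whether depth or the spread between libraries set its interval was not compared.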
